A study of Xenopus tropicalis with 15 samples.

Results

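SR and hnRNP proteins are RNA-binding proteins that decide which exons of a pre-mRNA are kept. SR proteins carry a domain rich in arginine and serine, mostly bind exonic enhancers and favour exon inclusion, while hnRNP proteins coat nascent transcripts, and many of them act at silencers. Many SR genes of mammals limit their own level through an exon that targets the transcript for decay, and CLK and SRPK kinases set the activity of the proteins by phosphorylation. Frog erythrocytes circulate with a nucleus, so genes of this kind can be transcribed in blood.

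The genes described here were chosen by symbol alone: those starting with srsf and a digit, those starting with hnrnp, and tra2a and tra2b, the vertebrate relatives of the Drosophila splicing regulator transformer-2. They numbered 32 of the 26531 genes in the table, namely 12 srsf genes, 2 tra2 genes and 18 hnRNP genes. Of these, 31 were among the 8939 genes with enough counts to be tested. The exception was hnrnpul2, a relative of the nuclear matrix protein gene hnrnpu, with 35 counts over all libraries, between 0 and 7 per library and 4 libraries at 0.

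Transcript levels came from 3' RNA-seq of all cells of peripheral blood, drawn with EDTA from the heart of wild-type Xenopus tropicalis. Each of 5 groups had 3 libraries. These were fresh cells before culture, cells cultured for 1.5 h or 4.0 h without added erythropoietin (control), and cells cultured for 1.5 h or 4.0 h with 1 ng/mL erythropoietin (EPO), the hormone that drives red cell production. The EPO was the X. tropicalis protein made in E. coli, and culture was in diluted IMDM with 10% fetal calf serum. All groups were wild type and all cultures held the serum. The labels call the 3 libraries of a group biological replicates. They do not give age, nor which animals a library came from or whether blood was pooled. The p-values reflect only how far these libraries spread, and how much of that spread lies between animals is not known. A 3' library counts transcript ends and does not show which exons a transcript holds.

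The libraries held 1329340 to 6351053 counts. The EPO groups were deeper, with means of 5206990 counts at 1.5 h and 4783670 at 4.0 h against 3124470 and 2773120 in the controls and 1825390 in fresh cells. A floor of 3 counts was worth 0.455 to 2.21 CPM (counts brought to the same total in every library, with a correction for library composition) in a single library, and such floors cover counting error only. Erythroid genes took 351137 to 454422 CPM per library. Summed thrombocyte markers lay at 372 to 492 CPM over all libraries, granulocyte and monocyte markers at 316 to 524 in fresh and 230 to 379 in cultured cells, and B cell markers at 39.6 to 74.1. T and NK cell markers summed to 29.8 to 31.6 CPM in fresh cells, 14.7 to 23.5 and 25.4 to 30.7 in the 1.5 h and 4.0 h controls, and 11.8 to 16.9 and 15.8 to 20.4 with EPO at 1.5 h and 4.0 h. In these bulk samples, fewer cells of a type and less RNA per cell cannot be told apart.

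The 32 genes together took 0.122% ± 0.0110 of the counts in fresh cells (SD, n = 3). Their share was 0.133% ± 0.0113 and 0.135% ± 0.00745 in the 1.5 h and 4.0 h controls, and 0.157% ± 0.0115 and 0.165% ± 0.0183 in the 1.5 h and 4.0 h EPO cultures. The lowest EPO library, at 0.144%, stood above the highest fresh library, at 0.134%, and overlapped with the controls, which reached 0.146%. This sum leans on the members with most counts. The largest, srsf5, had a mean of 154 CPM in fresh cells and 248 and 262 CPM in the controls. With EPO it had 329 and 365 CPM. Against fresh cells, the 14 tested SR and tra2 genes had median log2 fold changes of 0.45 and 0.58 with EPO at 1.5 h and 4.0 h. For the 17 tested hnRNP genes the medians were -0.01 and -0.05. In the 1.5 h and 4.0 h controls the medians against fresh cells were 0.18 and 0.06 for SR and tra2 genes, and 0.08 and -0.03 for hnRNP genes. Over all genes tested the medians lay at 0.01 to 0.02 in these comparisons. Setting EPO cultures against fresh cells was added after the results were seen, and culture and EPO cannot be told apart in it. The members whose values stood apart most are described first.

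The gene srsf5 encodes an SR protein that promotes exon inclusion. It lay at 99.7, 175 and 187 CPM in the fresh libraries (replicates 1, 2 and 3). Control libraries held 243, 220 and 280 CPM at 1.5 h, and 243, 265 and 279 CPM at 4.0 h. EPO libraries held 309, 333 and 344 CPM at 1.5 h, and 272, 419 and 403 CPM at 4.0 h. All 12 cultured libraries were above all fresh libraries. At 1.5 h every EPO library was above every control library, and at 4.0 h the EPO library of replicate 1 lay within the range of the controls.

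Transcripts of srsf6, another exon-enhancer-binding SR protein, lay at 9.60, 11.3 and 13.4 CPM in fresh cells. They reached 27.0, 14.7 and 16.3 CPM in the 1.5 h controls and 27.1, 17.8 and 22.2 CPM in the 4.0 h controls. With EPO they lay at 18.6, 29.0 and 31 CPM at 1.5 h and at 24.7, 27.0 and 27.9 CPM at 4.0 h. Again no cultured library overlapped with the fresh ones, but control and EPO libraries overlapped at both times.

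For srsf7, an SR protein with a zinc knuckle that also acts in mRNA export, the fresh libraries held 8.12, 10.4 and 19.3 CPM. Controls held 11.8, 17.2 and 27.8 CPM at 1.5 h and 13.2, 17.8 and 24.7 CPM at 4.0 h. EPO cultures held 21.0, 37.4 and 33.6 CPM at 1.5 h and 21.5, 37.0 and 35.8 CPM at 4.0 h. In each group replicate 1 was the lowest library. EPO and control libraries overlapped across replicates, while the EPO library was above the control library of the same number in 3 of 3 cases at each time.

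The gene tra2a, whose protein binds purine-rich exonic enhancers together with SR proteins, had 28.8, 45.9 and 52.6 CPM in fresh cells. Its level in controls was 40.1, 36.2 and 58.9 CPM at 1.5 h, and 35.9, 34.6 and 65.5 CPM at 4.0 h. The EPO libraries held 55.5, 73.7 and 65.5 CPM at 1.5 h and 56.1, 71.8 and 70.3 CPM at 4.0 h. Fresh and control libraries overlapped, EPO libraries were all above the fresh ones, and here too the EPO library exceeded its same-numbered control in 3 of 3 cases at each time.

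**Figure D1:**
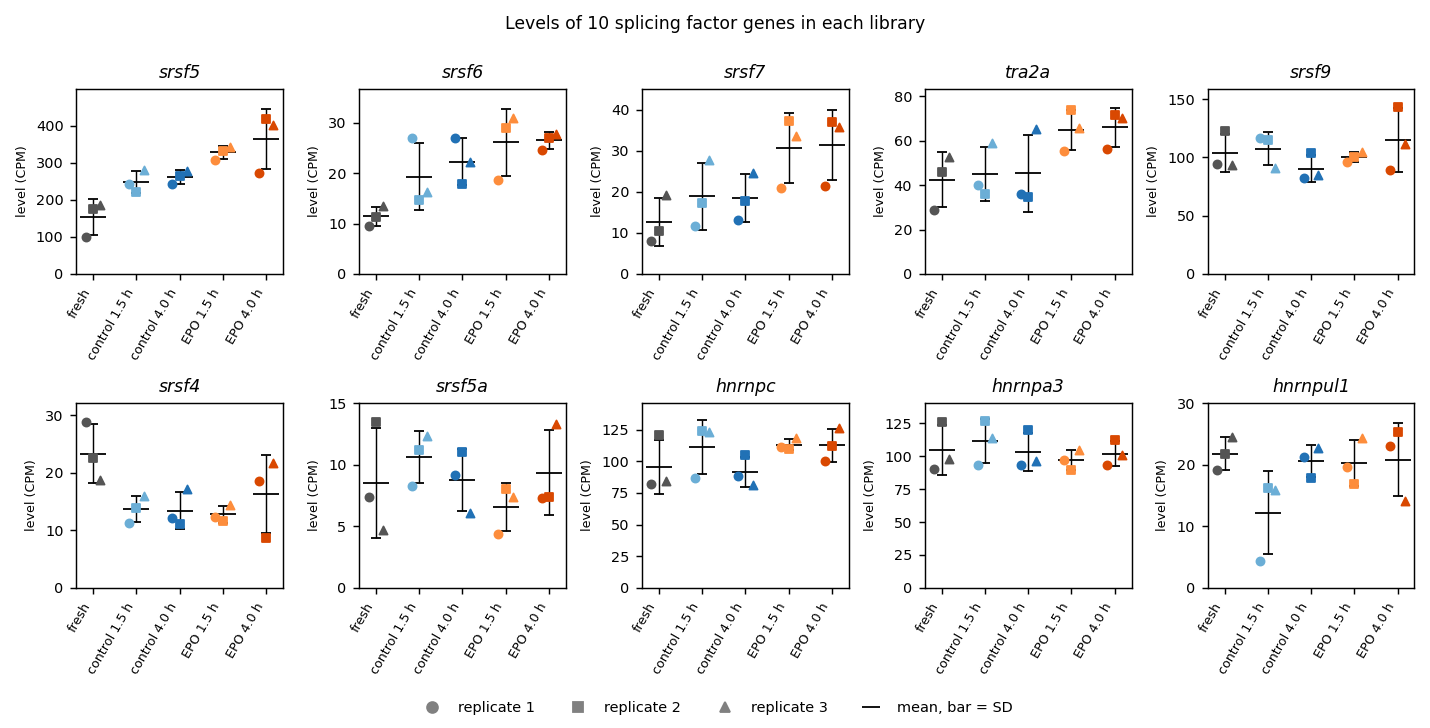
Levels of 10 splicing factor genes (CPM, linear axes from 0) in the 3 libraries of each group; symbols mark the replicate number, horizontal bars the mean and whiskers the SD. The srsf5 libraries run from 99.7 CPM in fresh cells to 419 CPM with EPO at 4.0 h, whereas hnrnpa3 overlaps across all 5 groups and hnrnpc stays between 81.6 and 126 CPM.

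Culture alone was examined by comparing control cultures with fresh cells. No member passed an adjusted p of 0.05 (edgeR quasi-likelihood test, Benjamini-Hochberg over all genes tested) at 1.5 h, where 0.324% of all genes passed, or at 4.0 h, where 0.0671% passed. The unadjusted p was under 0.05 for 4 of the 31 members in each comparison, and for 866 of all 8939 genes at 1.5 h and 724 at 4.0 h. The largest difference by p was that of srsf5, at a log2 fold change of 0.68 ± 0.182 (SE) at 1.5 h (adjusted p 0.113) and 0.76 ± 0.182 at 4.0 h (adjusted p 0.162). Same-numbered libraries deviated from their group means together, and in the fit with the replicate number as a block srsf5 was the 1 member that rose at each time, with adjusted p of 1.51e-04 and 4.98e-05. In that fit 0.705% of all genes rose at 1.5 h and 0.358% at 4.0 h.

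Other members that stood apart from fresh cells did not pass in either fit. The log2 difference of srsf6 was 0.73 ± 0.315 at 1.5 h and 0.95 ± 0.312 at 4.0 h (adjusted p 0.427 and 0.328). Transcripts of srsf4, an SR protein with a long arginine-serine domain, lay at 28.8, 22.5 and 18.7 CPM in fresh cells, against 11.3, 14 and 15.9 CPM in the 1.5 h controls and 12.2, 11 and 17.1 CPM in the 4.0 h controls. All 6 control libraries were below all fresh ones. The log2 difference was -0.75 ± 0.329 at 1.5 h (adjusted p 0.449) and -0.80 ± 0.333 at 4.0 h (adjusted p 0.494). In EPO cultures srsf4 held 12.3, 11.6 and 14.4 CPM at 1.5 h and 18.6, 8.70 and 21.7 CPM at 4.0 h, the latter overlapping with fresh cells.

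Between the controls at 4.0 h and 1.5 h, no member passed, against 0.0112% of all genes, and 1 member had an unadjusted p under 0.05, as did 333 of all 8939 genes. That member was hnrnpul1, a relative of hnrnpu that binds RNA and acts in the DNA damage response. It held 19.2, 21.7 and 24.6 CPM in fresh cells, 4.36, 16.2 and 15.9 CPM in the 1.5 h controls and 21.3, 17.8 and 22.7 CPM in the 4.0 h controls. The EPO libraries held 19.5, 16.9 and 24.2 CPM at 1.5 h and 23.0, 25.2 and 14.1 CPM at 4.0 h. The 1.5 h control library of replicate 1 was the lowest of the 15, and the log2 difference between the control times was 0.72 ± 0.335 (adjusted p 0.999).

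The effect of EPO was read against the control of the same time. No member passed at 1.5 h, where 0.436% of all genes did, or at 4.0 h, where 0.190% did, and at each time 4 members had an unadjusted p under 0.05, as did 637 and 635 of all 8939 genes. The log2 fold change of srsf5 was 0.41 ± 0.177 at 1.5 h (adjusted p 0.570) and 0.48 ± 0.177 at 4.0 h (adjusted p 0.438). With the replicate block srsf5 rose at both times, with adjusted p of 0.0435 and 0.0270, against 1.07% of all genes rising at 1.5 h and 0.324% at 4.0 h. These blocked calls did not hold without the 1.5 h control libraries of replicates 2 or 3 or any of the 1.5 h EPO libraries (0 members called), nor without the 4.0 h control library of replicate 2 or the 4.0 h EPO libraries of replicates 2 or 3 (0 members called). Without the 4.0 h control library of replicate 3, srsf5 was not called and tra2a was.

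Averaged over both times, the SR side and the hnRNP side of the list lay differently. Of the 14 tested SR and tra2 genes, 12 were higher with EPO, with a median log2 fold change of 0.31, and of the 17 tested hnRNP genes 7 were higher, with a median of -0.04. Over all genes tested, 48.9% were higher and the median was -0.01. The difference between the families was not tested. No member passed in the fit without the block, against 1.19% of all genes. The unadjusted p was under 0.05 for 5 of the 31 members and for 1056 of all 8939 genes.

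The leading members of that average were srsf5, tra2a and srsf7. Their log2 fold changes were 0.44 ± 0.125 for srsf5 (95% interval 0.19 to 0.70, adjusted p 0.0751), 0.55 ± 0.164 for tra2a (0.21 to 0.88, adjusted p 0.0946) and 0.73 ± 0.225 for srsf7 (0.28 to 1.19, adjusted p 0.105). With the replicate block these 3 genes rose, with adjusted p of 2.22e-04, 0.00283 and 0.00488, while 1.98% of all genes rose. Each of these calls held in 16 of 16 blocked alternatives, which were chosen after seeing the data. The highest adjusted p there was 0.00528, 0.0362 and 0.0432. In the fit without the block, leaving out the 1.5 h control library of replicate 3 gave 2 called members (tra2a and srsf7), leaving out the 4.0 h control library of replicate 3 gave 1 (tra2a), and leaving out the 4.0 h EPO library of replicate 1 gave 1 (srsf5).

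Behind them came srsf3, the smallest SR protein, which also acts in mRNA export and polyadenylation. It is given by library here because of its values, as are srsf2 and hnrnpl below. It held 25.8, 17.3 and 8.18 CPM in fresh cells, 22.7, 14.7 and 32.2 CPM in the 1.5 h controls and 24.0, 24.5 and 16.1 CPM in the 4.0 h controls. EPO libraries held 31.8, 31.1 and 37.4 CPM at 1.5 h and 28.5, 35.2 and 34.9 CPM at 4.0 h. All 6 EPO libraries were above all fresh libraries, and at 4.0 h also above all controls of that time. The mean EPO log2 fold change was 0.57 ± 0.202 (adjusted p 0.194, and 0.0738 with the block).

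**Figure D2:**
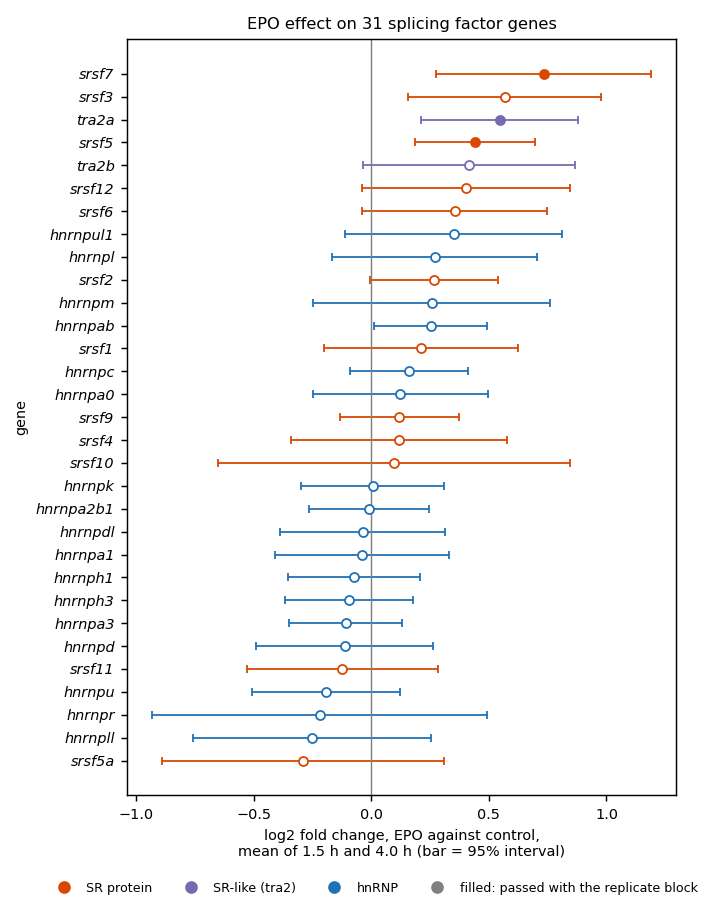
Log2 fold change of EPO against control, averaged over 1.5 h and 4.0 h, for the 31 tested genes, with 95% intervals (fit without the block); colours give the family and filled points passed with the replicate block. The filled points are srsf7, tra2a and srsf5, and the hnRNP genes lie on both sides of 0.

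The intervals of the average limit how large an EPO effect averaged over both times could be. They lay within a 2-fold change in either direction for 30 of the 31 members, all but srsf7, and for 17 of 17 hnRNP genes. At a single time fewer intervals did, those of 23 of 31 members at 1.5 h and 21 of 31 at 4.0 h. Among the 17 hnRNP genes the numbers were 15 and 13. For hnrnpc, which binds uridine tracts and packages pre-mRNA, the averaged log2 fold change was 0.16 (95% interval -0.09 to 0.41). Its libraries held 82.0, 120 and 84.2 CPM in fresh cells, 86.8, 124 and 123 CPM and then 88.3, 105 and 81.6 CPM in the controls at 1.5 h and 4.0 h, and 111, 110 and 118 CPM and then 100, 112 and 126 CPM with EPO. For hnrnpa3, of the A/B family of core hnRNP proteins, it was -0.11 (95% interval -0.35 to 0.13), with every library between 89.9 and 126 CPM. The A/B family also showed little spread in hnrnpa2b1, whose group means ran from 67.5 to 75.2 CPM.

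The remaining hnRNP genes differed by small amounts with EPO. The interval of hnrnpab was the one among the 17 that lay above 0 throughout, at a log2 fold change of 0.25 (95% interval 0.01 to 0.49, adjusted p 0.385). The others ran from -0.25 for hnrnpll, known in mouse and human T cells for the splicing of CD45, to 0.35 for hnrnpul1, and none passed in either fit. Between them lay hnrnpa0 and hnrnpa1, hnrnpd and hnrnpdl (AU-rich element binding), hnrnph1 and hnrnph3 (G-run binding), hnrnpk (C-rich element binding), hnrnpl (CA-repeat binding), hnrnpm (GU-rich element binding), hnrnpr and hnrnpu (a chromatin-associated RNA-binding protein). The value of hnrnpul1 includes its 1.5 h control library of replicate 1, which at 4.36 CPM was its lowest library.

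Among SR genes, EPO differences of either sign failed the test for the rest. The averaged log2 fold changes were 0.41 for tra2b, the close relative of tra2a, 0.40 for srsf12, 0.35 for srsf6, 0.26 for srsf2, 0.21 for srsf1, 0.12 for srsf9 and srsf4, 0.10 for srsf10, -0.12 for srsf11 and -0.29 for srsf5a. The last of these, srsf5a, shares its name with srsf5 but not its pattern, with 7.38, 13.4 and 4.68 CPM in fresh cells, 8.29, 11.2 and 12.3 CPM and then 9.13, 11 and 6.05 CPM in the controls, and 4.34, 8.01 and 7.37 CPM and then 7.28, 7.40 and 13.3 CPM with EPO. Its 1.5 h EPO libraries were below the controls of that time, and all other groups overlapped with each other and with fresh cells. Whether reads were split between srsf5 and srsf5a by the counting is not known here.

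The EPO effect at 4.0 h did not differ from that at 1.5 h for any member, and 0% of all genes passed that test, with 0 members and 228 of all 8939 genes at an unadjusted p under 0.05. The smallest p among members belonged to srsf9, hnrnpul1 and srsf5a. Transcripts of srsf9, a short SR protein, held 94.5, 123 and 93.5 CPM in fresh cells, 117, 115 and 91.1 CPM and then 82.5, 104 and 84.6 CPM in controls, and 96.0, 100 and 105 CPM and then 89.1, 144 and 112 CPM with EPO. The log2 EPO effect at 4.0 h minus that at 1.5 h was 0.44 ± 0.248 for srsf9 (adjusted p of 1), 0.78 ± 0.590 for srsf5a and -0.70 ± 0.455 for hnrnpul1. Mean srsf5a was lower with EPO at 1.5 h (6.57 against 10.6 CPM) and near the control at 4.0 h (9.34 against 8.74 CPM). Mean srsf9 was 100 against 108 CPM at 1.5 h and 115 against 90.3 CPM at 4.0 h. The hnrnpul1 value ran from -0.98 to -0.33 over 18 alternatives, and its 1.5 h control library of replicate 1, at 4.36 CPM, was its lowest. For srsf5 the difference between the times was 0.07 ± 0.25. The interval of this difference lay within a 2-fold change for 18 of 31 members, and reached past it for the other 13.

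EPO cultures were also set against fresh cells, a comparison added after the results were seen, in which culture and EPO cannot be told apart. It shares the fresh libraries with the comparisons of the controls above. At 1.5 h 4 members rose (srsf5, srsf6, srsf7 and srsf3), against 2.71% of all genes rising, and none fell. At 4.0 h 5 members rose (srsf5, srsf6, srsf2, srsf7 and hnrnpl), against 1.31% of all genes rising, and none fell. With the replicate block 6 members rose at 1.5 h, the former 4 with srsf2 and tra2a, against 4.34% of all genes. At 4.0 h 7 rose with the block, those 6 with hnrnpl, against 2.79% of all genes. The blocked call of tra2a held in 6 of 10 alternatives at each time. That of srsf3 held in 7 of 10 at 1.5 h and 6 of 10 at 4.0 h, and that of srsf2 in 7 of 10 at 1.5 h.

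In this comparison srsf5 was 2.12-fold higher at 1.5 h (log2 1.09 ± 0.182, adjusted p 1.68e-04) and 2.35-fold higher at 4.0 h (log2 1.24 ± 0.182, adjusted p 5.39e-05). The log2 fold changes of srsf7 were 1.28 ± 0.345 and 1.30 ± 0.347 at 1.5 h and 4.0 h (adjusted p 0.0223 and 0.0274), and those of srsf6 were 1.19 ± 0.302 and 1.20 ± 0.304 (adjusted p 0.0140 and 0.0176). For srsf3 they were 0.99 ± 0.306 and 0.96 ± 0.308 (adjusted p 0.0491 and 0.0767, the latter 0.0311 with the block). The 1.5 h call of srsf3 held in 4 of 12 alternatives and was also lost with DESeq2 size factors (adjusted p 0.0594), with a mean of at least 10 CPM (0.0656) and without globin genes (0.0574).

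The gene srsf2, whose SR protein is known for its place in nuclear speckles and in transcription elongation, held 50.2, 53.3 and 49.7 CPM in fresh cells. Its controls held 66.3, 78.3 and 57.7 CPM at 1.5 h and 71.0, 76.6 and 54.4 CPM at 4.0 h, and its EPO cultures 61.5, 88.5 and 76.5 CPM and then 68.4, 109 and 86.4 CPM. Every cultured library was above the fresh ones. Against fresh cells the log2 fold change with EPO was 0.56 ± 0.197 at 1.5 h (adjusted p 0.0925, and 0.0178 with the block) and 0.77 ± 0.198 at 4.0 h (adjusted p 0.0193).

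The hnRNP gene that rose was hnrnpl, whose protein binds CA repeats and regulates alternative exons. It held 8.86, 11.7 and 12.9 CPM in fresh cells, 12.7, 14 and 27.8 CPM and then 18.9, 13.5 and 26.2 CPM in controls, and 14.2, 19.6 and 22.9 CPM and then 22.7, 29.6 and 27.7 CPM with EPO. The EPO libraries of both times and the 4.0 h controls were all above the fresh ones, and the 1.5 h controls overlapped with them. With EPO the log2 fold change against fresh cells was 1.23 ± 0.333 at 4.0 h (adjusted p 0.0278) and 0.75 ± 0.334 at 1.5 h (adjusted p 0.212). Lower values without a call were those of hnrnpd, known for the decay of AU-rich transcripts, with a log2 fold change of -0.59 ± 0.262 at 1.5 h (adjusted p 0.215) and -0.59 ± 0.264 at 4.0 h (adjusted p 0.240), and of srsf4, with -0.86 ± 0.320 at 1.5 h (adjusted p 0.120). Both members were below all fresh libraries in all 1.5 h EPO libraries.

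Single libraries moved these counts, though srsf5 was called at each time in all 12 alternatives run. At 1.5 h the count was 2 without the fresh libraries of replicate 1 (srsf5 and srsf3) or 2 (srsf5 and srsf6), and 1 (srsf5) without the EPO library of replicate 2 or of replicate 3. At 4.0 h it was 2 without the fresh libraries of replicate 1 or 2 or the EPO library of replicate 2, and 1 (srsf5) without the EPO library of replicate 3. In the blocked fit the 1.5 h count was 2 (srsf5 and srsf7) without the EPO library of replicate 2. The 1.5 h log2 fold change of srsf3 was 0.65 without the fresh library of replicate 3 (adjusted p 0.259). Between the EPO cultures at 4.0 h and 1.5 h, also compared after the results were seen, no member passed, 0 members and 203 of all 8939 genes had an unadjusted p under 0.05, and 0.257% of all genes passed.

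**Figure D3:**
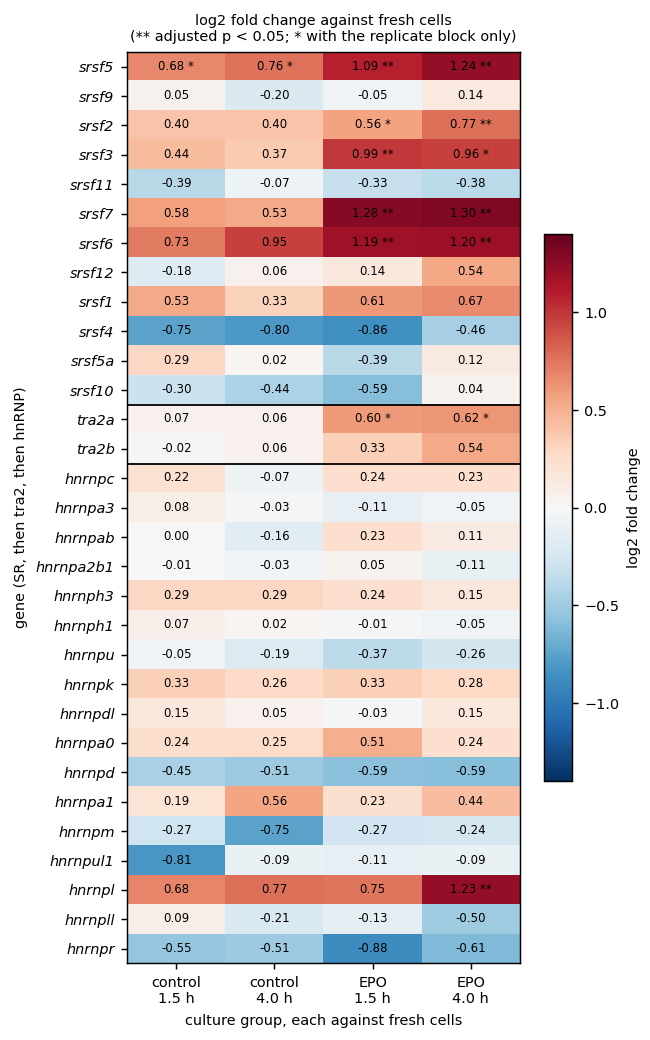
Log2 fold change of each culture group against fresh cells for the 31 tested genes (colour and printed value; red higher, blue lower); double asterisks mark an adjusted p under 0.05 and single asterisks a pass with the replicate block only. The row of srsf5 runs from 0.68 to 1.24 across the 4 columns, and tra2a is near 0 in the control columns and at 0.60 and 0.62 in the EPO columns.

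By count, 12 of 14 SR and tra2 genes were higher with EPO at 4.0 h than in fresh cells, with a median log2 fold change of 0.58, and 8 of 17 hnRNP genes, with a median of -0.05. At 1.5 h the counts were 9 of 14 (median 0.45) and 8 of 17 (median -0.01). In the controls at 1.5 h and 4.0 h, 9 and 10 of the 14 SR and tra2 genes were higher than in fresh cells (medians 0.18 and 0.06). Of the 17 hnRNP genes 11 and 7 were higher there (medians 0.08 and -0.03). Over all genes tested 50.9% were higher with EPO at 4.0 h and 50.5% at 1.5 h, and 52% and 51% in the 1.5 h and 4.0 h controls. These counts describe the list and share the fresh libraries.

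Genes that work with SR and hnRNP proteins were read from lists written from general knowledge with earlier results of these data known. Of 7 tested SR protein kinase genes none passed in any comparison without the block. With it, prpf4b fell with EPO against fresh cells, as did 351 of all 8939 genes at 1.5 h and 319 at 4.0 h. The fall was 0.85 ± 0.263 on the log2 scale at 1.5 h (adjusted p 0.0503, and 0.0205 with the block). At 4.0 h it was 0.79 ± 0.266 (adjusted p 0.0961, and 0.0421 with the block). The prpf4b controls, at 18.3 to 36.3 CPM, also lay below all fresh libraries, at 37.4 to 41.2 CPM. The gene clk3 went the other way, with 1.75 to 7.8 CPM in fresh cells and 9.79 to 12.6 CPM with EPO. Its controls, at 7.05 to 10.7 CPM, overlapped with fresh cells. The highest log2 fold changes of the 7 genes with EPO against fresh cells were 1.07 at 1.5 h and 1.13 at 4.0 h. None of the 7 rose in either fit. The kinase gene clk1 held 24.4, 41.2 and 42.7 CPM in fresh cells, 37.1, 50.9 and 28.2 CPM and then 46.0, 46.3 and 38.3 CPM in the controls, and 27.5, 32.4 and 29.3 CPM and then 23.0, 19.1 and 34.0 CPM with EPO. At 4.0 h all EPO libraries were below all controls of that time. The averaged EPO log2 fold change of clk1 was -0.57 ± 0.171 (adjusted p 0.0916, and 0.0226 with the block), so it fell in the blocked fit only. In that fit 153 of all 8939 genes fell.

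Among 33 tested splicing regulators of other families, rbfox2 fell with EPO, 1 of 33 by the averaged effect, and none rose, against 48 fallen and 58 risen of all 8939 genes. This regulator binds introns beside alternative exons and in mammals takes part in a late erythroid splicing switch. It held 64.2, 29.0 and 31.6 CPM in fresh cells, 23.6, 32.7 and 16.7 CPM and then 28.7, 29.1 and 52.4 CPM in the controls, and 19.8, 16.4 and 15.7 CPM and then 15.9, 14.4 and 16.2 CPM with EPO. The 4.0 h EPO libraries were below all controls of that time, and all EPO libraries were below all fresh ones. Its averaged EPO log2 fold change was -0.87 ± 0.206 (adjusted p 0.0239). At 4.0 h alone it was -1.22 ± 0.293 (adjusted p 0.0692, and 0.00617 with the block). With the block 47 of all 8939 genes fell there. Against fresh cells the rbfox2 value was -1.24 ± 0.294 at 1.5 h and -1.39 ± 0.299 at 4.0 h (adjusted p 0.00772 and 0.00482). Of all genes 255 and 209 fell in those comparisons.

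In the blocked fit fubp3 also fell by the averaged effect, as did 153 of all 8939 genes. Its averaged log2 fold change was -0.41 ± 0.121 (adjusted p 0.0834, and 0.00982 with the block). From the same list 1 of 33 genes rose with EPO against fresh cells at each time, as did 242 and 117 of all 8939 genes. This gene was rbm39, an SR-related coactivator and splicing factor. It rose by 0.88 ± 0.213 on the log2 scale at 1.5 h and 0.80 ± 0.214 at 4.0 h (adjusted p 0.00977 and 0.0252). It held 29.5, 29.9 and 20.5 CPM in fresh cells and 35.9 to 53.5 CPM in all cultures, so no culture overlapped with fresh cells. Of 54 tested core spliceosome genes, 36 and 44 were higher with EPO at 1.5 h and 4.0 h than in fresh cells (median log2 fold changes 0.04 and 0.25). In the 1.5 h and 4.0 h controls 40 and 42 were higher than in fresh cells (medians 0.13 and 0.12). Of the 54 genes 1 rose with EPO against fresh cells at each time, against 2.71% and 1.31% of all genes. It was the RNA helicase gene ddx5. Its libraries held 66.4, 53.7 and 75.4 CPM in fresh cells, 120, 79.6 and 86.3 CPM and then 114, 96.6 and 78.1 CPM in controls, and 169, 139 and 145 CPM and then 126, 111 and 112 CPM with EPO. The log2 fold changes of ddx5 with EPO against fresh cells were 1.21 ± 0.184 and 0.84 ± 0.184 (adjusted p 3.84e-05 and 0.00540). In the 1.5 h controls against fresh cells it was 0.55 ± 0.186 (adjusted p 0.258, and 0.0492 with the block). Its averaged EPO effect was 0.47 ± 0.125 (adjusted p 0.0528, and 7.67e-04 with the block), and at 1.5 h it was 0.66 ± 0.177 (adjusted p 0.0974, and 9.78e-04 with the block). With the block 63 of all 8939 genes rose in the 1.5 h controls against fresh cells. By the EPO effect 177 rose in the average and 96 at 1.5 h.

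The 23 nuclear speckle genes and the 11 tested genes of the exon junction complex and nonsense-mediated decay held no call in any comparison, with or without the block. Of 6 genes for nuclear import and arginine methylation, 1 rose with EPO at 1.5 h against fresh cells, as did 2.71% of all genes. This was prmt1, the main arginine methyltransferase of hnRNP proteins. It held 0, 11.7 and 3.51 CPM in fresh cells and 20, 23.1 and 19.5 CPM in the 1.5 h EPO libraries, which did not overlap, at a log2 fold change of 1.88 ± 0.539 (adjusted p 0.0383). At 4.0 h its EPO libraries held 13.5, 3.48 and 13.2 CPM. The fresh values are low, since 3 counts were worth 1.3 to 2.21 CPM in those libraries. With EPO against the control at 1.5 h no gene of this list passed (smallest adjusted p 0.470, and 0.212 with the block).

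**Figure D4:**
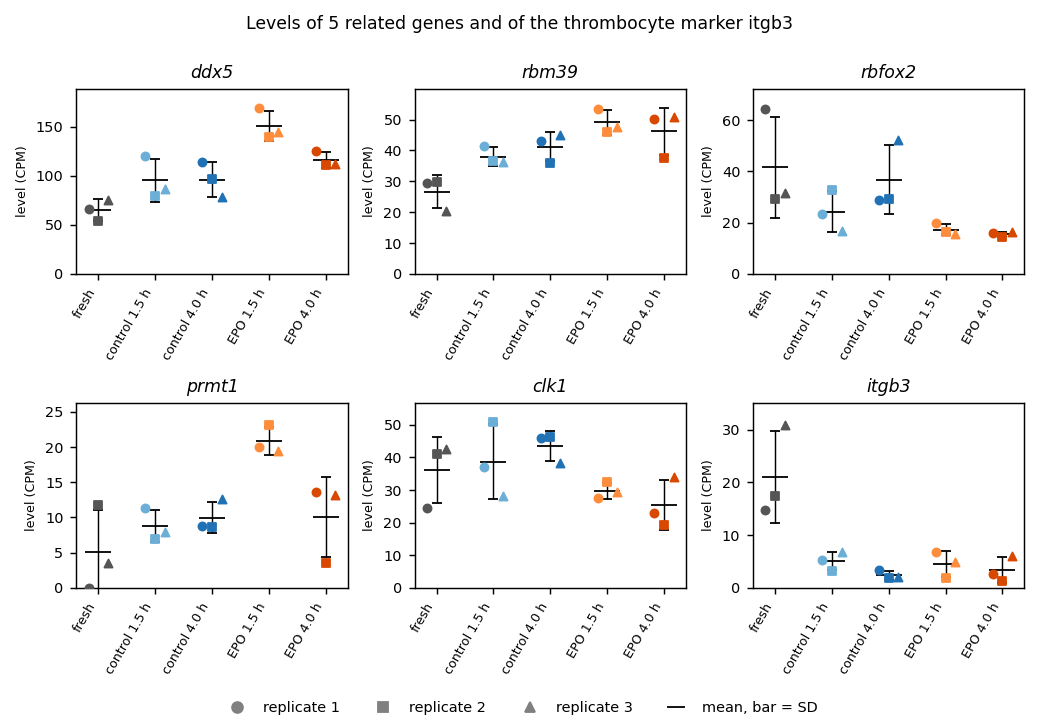
Levels (CPM, linear axes from 0) of 5 genes that work with SR and hnRNP proteins and of the thrombocyte marker itgb3 in the 3 libraries of each group, with mean and SD. The EPO libraries of rbfox2 lie between 14.4 and 19.8 CPM, and itgb3 is lower in every cultured library than in the fresh ones.

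Some markers of other blood cells, and some erythroid genes, moved in the same comparisons in which srsf5 was higher. The thrombocyte integrin gene itgb3 held 14.8, 17.3 and 31 CPM in fresh cells and 1.31 to 6.76 CPM in cultures. Its log2 fold change in the 1.5 h controls was -2.07 (adjusted p 0.0842, and 0.00995 with the block). It was -3.10 in the 4.0 h controls, -2.24 with EPO at 1.5 h and -2.56 with EPO at 4.0 h (adjusted p 0.0244, 0.00576 and 0.00328). Of all 8939 genes 54 fell with the block in the 1.5 h controls. Without it 3 fell in the 4.0 h controls, and 255 and 209 with EPO at 1.5 h and 4.0 h. Against fresh cells 5 of the 6 tested thrombocyte genes were lower in the 1.5 h and 4.0 h controls and with EPO at 4.0 h, with median log2 fold changes of -1.43, -0.88 and -1.03, and 4 of 6 with EPO at 1.5 h, with a median of -1.22. The summed level of that list covered 372 to 474 CPM in fresh cells and 377 to 492 CPM in cultures.

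Of the granulocyte and monocyte list, cybb fell with EPO at 1.5 h against fresh cells, at a log2 fold change of -2.62 (adjusted p 0.00202), and so did alox5ap, at -0.58 (adjusted p 0.0229). In that comparison 8 of the 12 tested genes of the list were lower and 4 higher, with a median of -0.37, and 4 fell with the block. Of all 8939 genes 255 fell in that comparison, and 351 with the block. All 3 tested T and NK cell genes were lower there, with a median of -1.11, and prf1 fell with the block only (adjusted p 0.0758, and 0.0495 with the block). Against fresh cells 11 of the 12 granulocyte and monocyte genes were lower in the 1.5 h controls (median -0.54). In the 4.0 h controls 9 were lower (-0.34), and 7 with EPO at 4.0 h (-0.11). Of the 3 T and NK cell genes, 3 were lower in the 1.5 h controls (-1.01), 2 in the 4.0 h controls (-0.17) and 3 with EPO at 4.0 h (-0.94). In the averaged EPO effect no gene of these lists passed without the block. With it, ncf1 and spi1 of the granulocyte and monocyte list rose and mpo and alox5ap fell. Of the 9 erythroid genes tal1 and gata1 rose and epor and hba1 fell. Over all 8939 genes 177 rose and 153 fell with the block. Of the markers in the table, lyz was at 0 in fresh cells and controls, and cd8b in all groups. The part of these cells and of the deeper sequencing of the EPO groups in the results was not tested.

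All 32 members were found in RefSeq annotation of UCB_Xtro_10.0, an assembly that may not be the build behind the counts and was used for names and neighbours only. Another gene overlapped with hnrnpa1 (cbx5), hnrnpa3, hnrnpk, hnrnpul2 (ttc9c) and srsf9 (gatc). These overlaps are of whole gene spans, without regard to exons, transcript ends or strand. The sources used here do not say whether counting used strand, and whether any reads were shared by these pairs is not known. Neighbours in that table included hnrnpab, hnrnpa0 and clk1 in a row, with averaged EPO log2 fold changes of 0.25, 0.12 and -0.57, and hnrnpd beside hnrnpdl, with -0.11 and -0.04.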

How the data were processed

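The deposited table holds whole-number counts per gene, 1 column per library. Tools in the submitters' processing notes are Salmon, R 4.3.2, BWA 0.7.17-r1188 and fastp 0.21.0. Build, annotation, strand use, rounding and the role of each tool: not given in the sources used here. Libraries were Lasy-Seq v1.1 per the labels.

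In R 4.3.3, edgeR 4.0.16 was run on all 15 libraries (filterByExpr, TMM scaling, 5 group means, robust quasi-likelihood F test, two-sided, Benjamini-Hochberg over 8939 genes, threshold 0.05; 10 residual degrees of freedom, biological coefficient of variation 0.286). CPM values are TMM-scaled and not divided by length. Members were ranked by CPM only to choose which to give by library and to say which took most counts. DESeq2 1.42.0 and the settings in the closing section were alternatives. The procedure was tested on simulated data. Libraries of a group differed beyond counting noise (chi-square per degree of freedom 4.69 to 15.1).

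Pairing by replicate number was checked on 1417 genes. The 30 same-number pairs correlated in their deviations from group means at 0.280 to 0.626, the 60 other pairs at -0.391 to 0.0484. The labels number the biological replicates without saying what a number shares, so this pairing rests on the data. The blocked fit (coefficient 0.241, 8 degrees of freedom) is given beside results it changes.

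Values by library are given for members past the threshold in any of 7 comparisons, the 3 with the smallest p in each and the 3 with the highest mean CPM, plus srsf2, srsf3 and hnrnpl, chosen after their values were seen. The members and lists were chosen with earlier results of these data known, and 3 comparisons were added after the results were seen.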

Additional observations from a re-analysis of the deposited data

How the results depend on the processing

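Without a filter on low counts, 1 member (srsf5) was called in each control culture against fresh cells, and 3 in the mean EPO effect. Of all 23380 genes then tested, 68 were called in the 1.5 h control, 38 in the 4.0 h control and 163 in the mean EPO effect. The DESeq2 Wald test called 1 member (srsf5) in the mean EPO effect, and 193 of all 8939 genes, against 106 in the main fit. The replicate block gave 1 call in each control culture against fresh cells. It gave 1 in the EPO comparison at each time and 3 in the mean EPO effect. With it 117 and 53 of all 8939 genes were called in the 1.5 h and 4.0 h controls. In the EPO comparisons 139 (1.5 h), 76 (4.0 h) and 330 (mean) were called. The block changed no other call of a member among the 7 first comparisons. Leaving out single libraries gave 0 to 2 calls in the mean EPO effect, 1 to 3 with EPO at 1.5 h and 1 to 5 with EPO at 4.0 h against fresh cells. In the blocked fit it gave 0 to 1 calls for the EPO comparison at 1.5 h and also for that at 4.0 h, and 2 to 5 for EPO at 1.5 h against fresh cells. The cause was not tested, and the counts of all genes called without single libraries are not reported here. Of 697 gene values under alternatives, 616 kept their direction and side of the threshold, 58 lost the call, 23 gained one and 0 reversed. These values include genes without a call to begin with, which could not lose one. The calls made without the block held in 4 of 12 alternatives (srsf3 with EPO at 1.5 h) to 12 of 12 (srsf5 with EPO at each time). With a mean of at least 10 CPM required, srsf5a, hnrnpr and srsf10 had no value, at means of 8.75, 5.93 and 5.30 CPM. Blocked alternatives were chosen after seeing the data. Depth was lowest in fresh cells, where 3 counts were worth up to 2.21 CPM.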
